A study of Mus musculus with 6 samples.

Results

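Stathmins and microtubule-severing enzymes are 2 families that act on the microtubules of a cell. The 9 genes described here, of 32564 genes summed from the deposited transcripts, were taken by symbol: Stmn1, Stmn2, Stmn3 and Stmn4 for the stathmins, and Katna1, Katnal1, Spast, Fign and Fignl1 for the severing enzymes. The families were chosen by name with the fold changes and p-values of antagomir over vehicle in these libraries already known, so those values are given as a description. They were measured by RNA sequencing in flow-sorted cells taken as quiescent neural stem cells, which rarely divide in the adult brain. The cells came from gfap:GFP mice 3 months of age, out of their subependymal zone (strain given as C56BL/6J). One group received an antagomir, an oligonucleotide that blocks a microRNA, against miR-204 by injection into the ventricles (3 libraries), and the other received artificial cerebrospinal fluid, the vehicle (3 libraries). Cells were isolated 3 days later. All 6 libraries come from the transgenic line, in which the Gfap promoter drives green fluorescent protein in astrocytes as well as stem cells. No control oligonucleotide is named, so the presence of an oligonucleotide and the block of miR-204 cannot be told apart. The labels do not say whether replicates were separate animals or pools, so a p-value reflects only how much the libraries vary, which may be technical.

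Stathmins bind free tubulin and favour the shrinking of microtubules, and phosphorylation switches this off. Stmn1 is the cytosolic member found in dividing and immature cells, while Stmn2, Stmn3 and Stmn4 are attached to membranes and belong mainly to neurons, where Stmn2 is known from growth cones. The severing enzymes are ATPases that pull tubulin out of the microtubule wall and so cut it. Katna1 is the catalytic subunit of katanin and Katnal1 is its close relative, Spast encodes spastin, which is mutated in human hereditary spastic paraplegia, and Fign encodes fidgetin. Fignl1 is a relative of fidgetin known for a role in the repair of broken DNA. In the adult subependymal zone, microtubule remodelling is best known in neuroblasts, the immature neurons that migrate to the olfactory bulb.

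The microRNA that the antagomir was directed against is shown with 3 stretches of member transcripts that match its seed. A seed match is the feature by which a transcript could be bound directly. The microRNA sequence is from RefSeq (GRCm38.p6) and the transcript stretches are from GENCODE M21 (GRCm38). Capitals mark the seed, bases 2 to 8, in the microRNA, and the matching 7 bases in the transcripts.
mmu-miR-204-5p: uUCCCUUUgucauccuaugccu
Fign-203: aagactgcttAAAGGGActtgaaagaa
Stmn2-201: aagccaggctAAGGGAAtctaccagtc
Katnal1-201: tgactttttcAAAGGGAttagaaggcc
The match of Fign lies in its 3′ UTR at chr2:63973362-63973368 on the minus strand, 5277 bases after the stop codon. Fign-203, the coding form that carries it, had only 0.0537 to 0.297 TPM and 5.01 to 31.9 counts per library. Fign-201, annotated for nonsense-mediated decay, had a higher TPM in every library except vehicle replicate 1. The match of Stmn2 is of the weaker kind that lacks base 8 and has an A opposite base 1, and it lies in the 3′ UTR at chr3:8560899-8560905 on the plus strand, 574 bases after the stop codon. The match of Katnal1 lies in coding sequence, at chr5:148893700-148893706 on the minus strand, and its 3′ UTR of 4554 bases held neither AAAGGGA nor AAGGGAA. The leading coding transcripts of Spast, Stmn1, Stmn3 and Stmn4 held neither heptamer, and those of Katna1 and Fignl1 held AAGGGAA only in coding sequence. Among 14260 genes with a mean count of at least 10 and an annotated 3′ UTR, AAAGGGA was present in that region in 13.6% and AAGGGAA in 14.2%. These are matches of letters on the transcript strand and not measured binding, and miR-204 itself was not analysed here.

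All 9 genes are protein coding. In GRCm38, Stmn1 is at chr4:134468320-134473843, Stmn2 at chr3:8509360-8561606, Stmn3 at chr2:181306459-181314500 and Stmn4 at chr14:66344296-66361680. Katna1 is at chr10:7726000-7763150, Katnal1 at chr5:148871584-148929320, Spast at chr17:74338987-74391115, Fign at chr2:63971507-64098038 and Fignl1 at chr11:11787431-11808962. The library kit does not mark strand, but exons of other genes covered little of these. Gm42791 shared 642 of 10496 exon bases with Katnal1 and had 11.6 to 47.6 counts per library.

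Each library held 14866453 to 19694409 estimated counts. Values in CPM, estimated counts scaled to library size, compare 1 gene between libraries, and values in TPM, which also correct for transcript length, compare genes. Markers of quiescent stem cells and astrocytes were present in every library (8 of 8 genes, summed 4870 to 6370 CPM with antagomir and 6260 to 7170 CPM with vehicle); astrocytes share these markers, so they do not show stem cells by themselves. Other types were present as well, since 5 oligodendrocyte markers summed to 12600 to 17600 CPM with antagomir and 7620 to 16000 CPM with vehicle. The 4 markers of oligodendrocyte precursors summed to 397, 517 and 655 CPM with antagomir and 309, 480 and 331 CPM with vehicle. Most of each sum was Olig1, with 309, 429 and 474 CPM with antagomir and 217, 433 and 308 CPM with vehicle. Pdgfra, Cspg4 and Gpr17 were each highest in antagomir replicate 3. Of the 4 markers, 4 of 4 had a positive log2 fold change (median 0.98). The 5 ependymal markers summed to 803, 1420 and 1440 CPM with antagomir and 1240, 1530 and 1590 CPM with vehicle, and 5 of 5 had a negative one (median -0.27). The part of either type in the members' values was not tested. The 7 neuroblast markers that could be matched summed to 1960, 980 and 877 CPM in antagomir replicates 1, 2 and 3, and to 1360, 553 and 639 CPM in vehicle replicates 1, 2 and 3. By this sum, replicate 1 of each group was the library richest in neuroblast transcripts. The marker Cd24a did not follow it, with 283, 377 and 329 CPM with antagomir, against 362, 267 and 359 CPM with vehicle. The other markers of the list each did. Vehicle replicate 1 also stood apart in microglia markers, which summed to 75.2, 134 and 202 CPM in the antagomir libraries and to 1580, 188 and 104 CPM in the vehicle libraries. In bulk samples like these, fewer cells of a type and less RNA per cell cannot be told apart.

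Per length, the stathmins were far more abundant than the severing enzymes. The 4 stathmins together amounted to 2183 ± 674 TPM with antagomir and 1317 ± 375 TPM with vehicle (SD, n = 3 each). The 5 severing enzymes together amounted to 101.6, 117.8 and 96.8 TPM in antagomir replicates 1, 2 and 3, against 78.1, 82.0 and 73.2 TPM in vehicle replicates 1, 2 and 3. Stmn1 led the order, with 1256 to 2235 TPM in the antagomir libraries and 610 to 1218 TPM in the vehicle libraries, and it made up 73.5 ± 1.82% of stathmin TPM with antagomir and 69.8 ± 3.70% with vehicle. Stmn4 came next, with 406 to 429 TPM with antagomir and 260 to 394 TPM with vehicle. In both groups these 2 genes did not overlap with each other or with the gene after them. Among the next 4 genes the order was resolved only in part. Stmn3 (51.7 to 138 TPM with antagomir, 30.8 to 77.1 TPM with vehicle) overlapped with Stmn2 (28.4 to 158 TPM with antagomir, 7.36 to 62.8 TPM with vehicle), and Stmn2 overlapped with both katanin genes. Stmn3 lay above Katnal1 without overlap in both groups, and above Katna1 in the antagomir group. Katnal1 had 34.1 to 46.6 TPM with antagomir and 20.7 to 29.8 TPM with vehicle. Katna1 overlapped with Katnal1 in the antagomir libraries (35.1 to 42.1 TPM) and, with 29.3 to 36.6 TPM, also in the vehicle libraries. Spast lay below them in both groups, at 17.3 to 27.5 TPM with antagomir and 12.2 to 17.9 TPM with vehicle. Fignl1 (2.17 to 4.17 TPM with antagomir, 1.00 to 5.67 TPM with vehicle) and Fign (1.09 to 2.82 TPM with antagomir, 0.297 to 5.11 TPM with vehicle) closed the order and overlapped with each other.

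**Figure D1:**
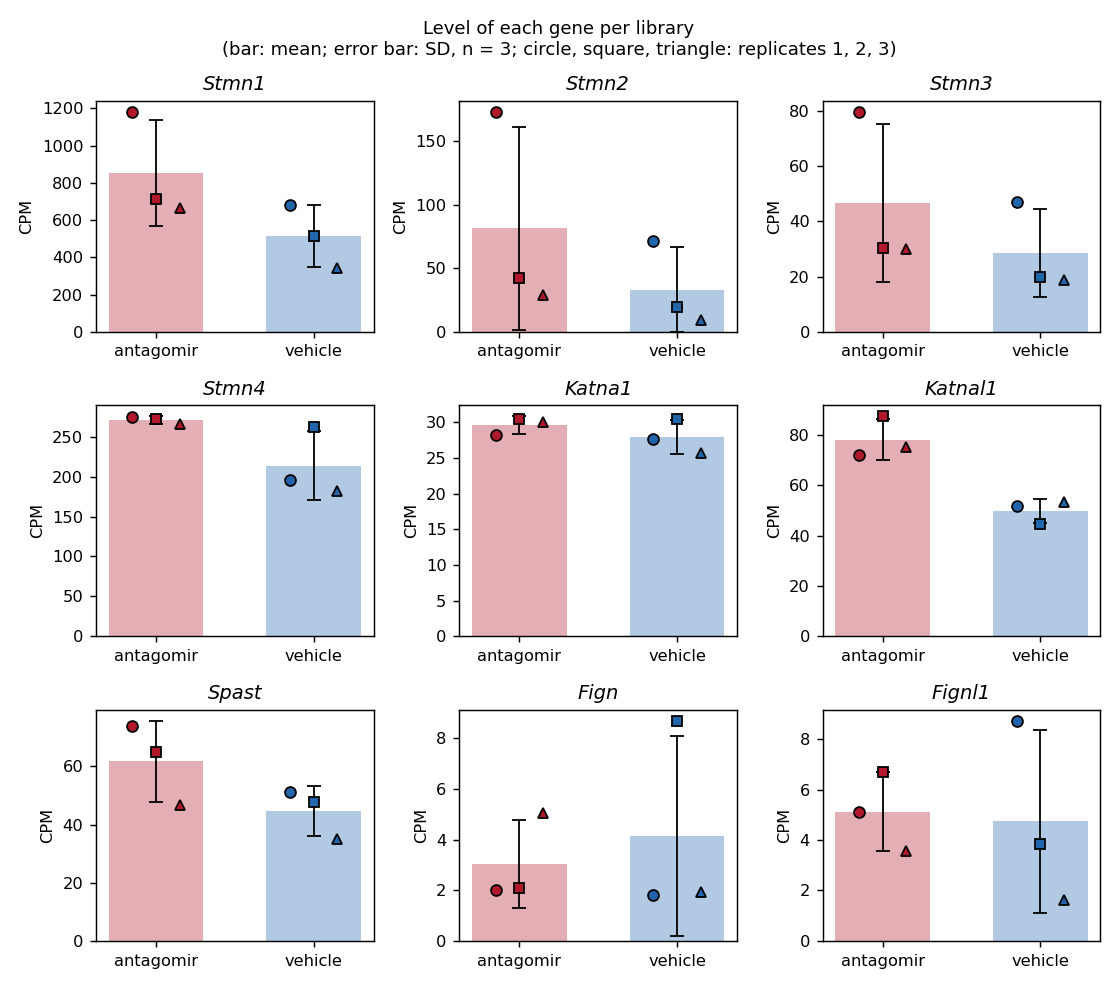
Level of each of the 9 genes in CPM (vertical axis, from 0) in the antagomir and the vehicle libraries; bars are means, error bars are SD over 3 libraries and symbols mark replicates 1, 2 and 3. For Stmn4 and Katnal1 the symbols of the groups do not overlap, and for Stmn1, Stmn2, Stmn3 and Spast replicate 1 is the highest library of each group.

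Setting antagomir against vehicle libraries asks which transcripts differ after injection of the antagomir. Across all genes, edgeR's quasi-likelihood test called 0 of 15012 tested genes at an adjusted p of 0.05, which is a background of 0% (616 genes at an unadjusted p under 0.05, 5 called by DESeq2 and 0 by limma-voom). All 9 members passed the filter on low counts, and 0 of them passed the test in any of these tools. Of the members, 8 had a log2 fold change of antagomir over vehicle above 0, where 49.1% of tested genes did. The median over the 9 was 0.47, beside -0.0062 over all tested genes. Because the members were chosen with these values known, nothing further is read from those counts.

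Katnal1, the katanin relative, measured 72.0, 87.4 and 75.2 CPM in antagomir replicates 1, 2 and 3, against 51.8, 44.5 and 53.2 CPM in vehicle replicates 1, 2 and 3. Every antagomir library was above every vehicle library. Its log2 fold change was 0.65 ± 0.16 (SE), with an edgeR adjusted p of 0.949, so it did not pass. Leaving out any single library moved the fold change only between 0.57 and 0.71. Stmn4, the other member whose groups did not overlap, measured 275, 272 and 265 CPM with antagomir, against 196, 262 and 182 CPM with vehicle. The 3 antagomir libraries lay close together, and vehicle replicate 2 came within a few CPM of them. The log2 fold change of Stmn4 was 0.34 ± 0.16 (edgeR adjusted p = 0.949) and ran from 0.25 without vehicle replicate 3 to 0.52 without vehicle replicate 2. Of all tested genes, 5.07% had groups that did not overlap with antagomir higher, and nothing is read from the 2 of 9 members beside that share. Oligodendrocyte markers were lowest in vehicle replicates 1 and 3 (7620 and 11500 CPM summed, against 16000 CPM in vehicle replicate 2), the libraries in which Stmn4 was also lowest, and their part in the difference was not tested.

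Stmn1 measured 1182, 712 and 665 CPM in antagomir replicates 1, 2 and 3, against 682, 517 and 345 CPM in vehicle replicates 1, 2 and 3. The groups overlapped, since vehicle replicate 1 lay between antagomir replicates 2 and 3. The log2 fold change was 0.73 ± 0.30 (edgeR adjusted p = 0.949). It was 0.42 without antagomir replicate 1, and 0.67 with replicate 1 of both groups left out. Stmn1 and Katnal1 were the 2 members with an unadjusted p under 0.05, both higher with antagomir, where 2.18% of tested genes were. Stmn2, the growth cone stathmin, varied most of the 9 members, with 173, 42.2 and 28.9 CPM with antagomir, against 71.4, 19.2 and 8.94 CPM with vehicle. Its highest library exceeded its lowest 19.4-fold. The groups overlapped widely, as vehicle replicate 1 was above antagomir replicates 2 and 3. The log2 fold change of Stmn2 was 1.29 ± 0.85 (edgeR adjusted p = 0.949), and a single library decided its size: it was 0.098 without antagomir replicate 1 and 2.56 without vehicle replicate 1. Stmn3 measured 79.7, 30.4 and 29.8 CPM with antagomir, against 47.0, 19.9 and 18.9 CPM with vehicle. Here too vehicle replicate 1 was above antagomir replicates 2 and 3. Its log2 fold change of 0.70 ± 0.49 (edgeR adjusted p = 0.949) was 0.072 without antagomir replicate 1 and 1.28 without vehicle replicate 1. With replicate 1 of both groups left out, it was 1.34 for Stmn2 and 0.63 for Stmn3.

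**Figure D2:**
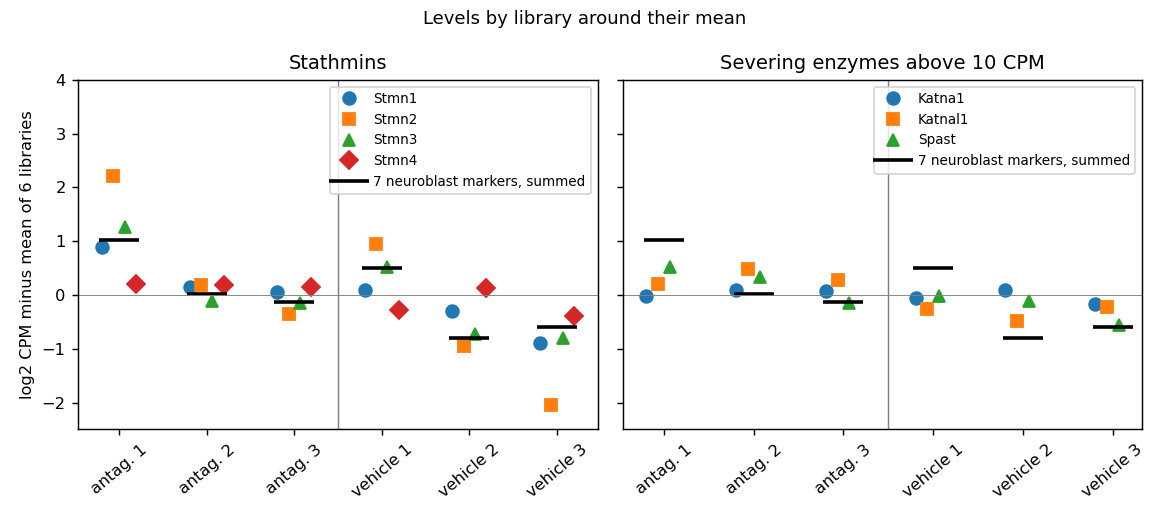
Log2 CPM of the stathmins (left) and of the 3 severing enzymes above 10 CPM (right), each minus its mean over the 6 libraries, by library with antagomir libraries left of the vertical line; black bars give the summed CPM of 7 neuroblast markers on the same scale. Stmn2 and Stmn3 are highest in antagomir replicate 1 and vehicle replicate 1, as the marker sum is, while Stmn4, Katna1 and Katnal1 stay within 0.5 of their mean.

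Stmn2 and Stmn3 were thus highest in the same libraries as the sum of the neuroblast markers. The sum of the 6 neuron markers was highest there too, with 346, 177 and 153 CPM in antagomir replicates 1, 2 and 3, against 250, 150 and 120 CPM in vehicle replicates 1, 2 and 3. Not every marker of that list followed the sum. Syt1 was lower in antagomir replicate 1 (6.87 CPM) than in antagomir replicate 2 (7.96 CPM). Syp was lower in vehicle replicate 1 (37.6 CPM) than in vehicle replicate 2 (41.5 CPM). The other neuron markers were highest in replicate 1 of each group. The ratio of Stmn2 to Dcx, the microtubule-binding protein gene that marks neuroblasts, was 0.599 ± 0.115 with antagomir and 0.594 ± 0.149 with vehicle (SD, n = 3 each), and varied only 1.62-fold over the 6 libraries. Dcx itself measured 274, 60.8 and 61.1 CPM with antagomir, against 142, 25.1 and 17.4 CPM with vehicle. Both genes were highest in antagomir replicate 1, followed by vehicle replicate 1. For Stmn4 the ratio to Dcx varied 10.5-fold, with means of 3.27 ± 1.97 with antagomir and 7.45 ± 5.26 with vehicle. Stmn1 per Dcx averaged 8.96 ± 4.05 with antagomir and 15.1 ± 8.93 with vehicle, and Stmn3 per Dcx 0.426 ± 0.117 with antagomir and 0.738 ± 0.382 with vehicle. Over the 6 libraries the ratio to Dcx varied 4.78-fold for Stmn1 and 3.75-fold for Stmn3. The part of neuroblast and neuron content in the fold changes was not tested.

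The genes whose pattern over the 6 libraries came closest to a member were found by the root mean square (RMS) difference of centred log2 CPM, searched over 13956 genes. For Stmn2, which had an RMS of 1.36 around its own mean, the nearest were Dpysl5 (0.118), Elavl4 (0.191) and Crmp1 (0.200). These encode 2 collapsin response mediator proteins and an RNA-binding protein of neurons. For Stmn3 (RMS of 0.715) they included Cdca7 (0.108) and Mturn (0.122). Stmn1 (RMS of 0.533) was nearest to Crtac1 (0.0826), Arhgap33 (0.0942) and Ptpn5 (0.0978). For Katnal1 (RMS of 0.344) the nearest were Thoc3 (0.108), Ankdd1b (0.110) and Smtn (0.112), and for Spast (RMS of 0.346) Cul7 (0.0611), Synj2bp (0.0683) and Cttnbp2 (0.0832). Stmn4 (RMS of 0.241) was nearest to Nploc4 (0.0240), Atp9a (0.0463) and Far1 (0.0516). Katna1 (RMS of 0.0906) was nearest to Tgoln1 (0.0269) and Tmem106b (0.0360), the third being a gene with a clone name only. Fign (RMS of 0.836) had no gene closer than Cyp3a13 (0.249), followed by Mettl21e (0.280) and Ebf4 (0.299), and Fignl1 (RMS of 0.746) none closer than Ccdc25 (0.217), followed by Filip1 (0.223) and Ptbp3 (0.227). These distances describe 6 libraries that also share their neuroblast and depth differences.

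Spast measured 73.9, 64.8 and 46.6 CPM in antagomir replicates 1, 2 and 3, against 51.2, 47.6 and 35.1 CPM in vehicle replicates 1, 2 and 3. Antagomir replicate 3 lay below vehicle replicates 1 and 2, so the groups overlapped. Within each group replicate 1 was the highest library, as it was for Stmn1, Stmn2 and Stmn3. The log2 fold change was 0.47 ± 0.23 (edgeR adjusted p = 0.949). Katna1 was the steadiest member, with 28.2, 30.5 and 30.1 CPM with antagomir, against 27.6, 30.5 and 25.7 CPM with vehicle. Its log2 fold change was 0.084 ± 0.18 (edgeR adjusted p = 0.964). Fignl1 measured 5.11, 6.69 and 3.57 CPM with antagomir, against 8.72, 3.85 and 1.63 CPM with vehicle, and Fign 2.01, 2.08 and 5.05 CPM with antagomir, against 1.80, 8.68 and 1.93 CPM with vehicle. Both rested on few reads, with 31 to 142 counts per library for Fign and 32 to 155 for Fignl1, and for each a vehicle library was the highest of all 6. The log2 fold change of Fign was -0.44 ± 0.77 (edgeR adjusted p = 0.958) and turned to 0.71 without vehicle replicate 2. That of Fignl1 was 0.11 ± 0.64 (edgeR adjusted p = 0.991) and turned negative without antagomir replicate 2 (-0.12), vehicle replicate 2 (-0.011) or vehicle replicate 3 (-0.29).

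**Figure D3:**
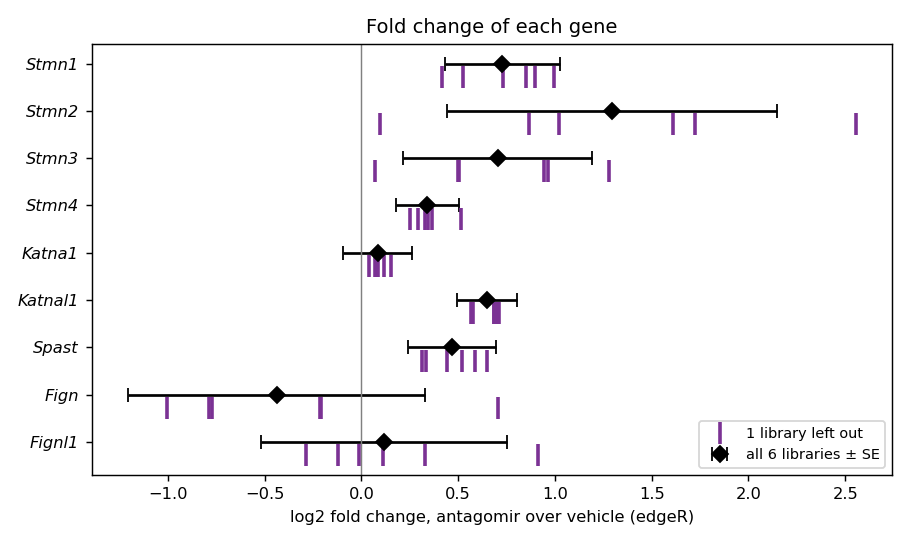
Log2 fold change of antagomir over vehicle (horizontal axis) for each gene, with diamonds and SE bars for all 6 libraries and purple ticks for fits with 1 library left out. Katnal1 stays between 0.57 and 0.71 in these fits, whereas Stmn2 runs from 0.098 to 2.56 and Fign and Fignl1 cross 0.

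The share of each transcript within its gene played no part in the choice of members. Stmn4 is known for splice forms with changed or shortened ends, and 3 of its transcripts held most of its TPM. Stmn4-203 carries an extra coding exon of 81 bases, which is 27 codons, at chr14:66356269-66356349 on the plus strand. Stmn4-202 instead carries an extra exon of 53 bases before the last one, at chr14:66358679-66358731, that brings an early stop codon. The first sequence below is the whole exon, and the second runs from the first base of its exon to the stop codon, which is in capitals (GENCODE M21, GRCm38). They are shown because the reads over them separate the forms.
Stmn4-203 exon: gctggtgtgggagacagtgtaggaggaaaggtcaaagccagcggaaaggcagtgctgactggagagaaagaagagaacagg
Stmn4-202 exon: gagccgcctgctgcgcggTGA
Stmn4-201, with neither exon, held 49.4, 49.0 and 42.0% of the gene's TPM in antagomir replicates 1, 2 and 3, against 51.3, 43.5 and 39.4% in vehicle replicates 1, 2 and 3. Stmn4-203 held 27.7 ± 4.59% with antagomir and 30.0 ± 5.24% with vehicle (SD, n = 3 each). Stmn4-202 held 21.1 ± 1.21% with antagomir and 20.9 ± 3.21% with vehicle. All 3 forms were thus present in every library, and their shares overlapped between the groups (exact two-sided permutation p = 0.7, 0.6 and 0.9 for Stmn4-201, Stmn4-203 and Stmn4-202, where 0.1 is the smallest that 3 against 3 can give).

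Among the other members, Stmn1-201 held 98.0 to 98.8% of Stmn1 TPM, and Stmn3 and Spast were listed with a single transcript. Katna1-201 held 54.7, 2.82 and 53.7% of Katna1 TPM in antagomir replicates 1, 2 and 3, against 57.0, 56.0 and 53.5% in the vehicle replicates. Katna1-202 held 64.5% in antagomir replicate 2, against 23.9 to 29.1% in the other libraries. Those transcripts have the same 1774 bases and Katna1-202 has 1 more at its end, so reads can barely separate them. Joined, they held 78.8, 67.3 and 77.5% in antagomir replicates 1, 2 and 3, against 86.0, 80.2 and 77.8% in vehicle replicates 1, 2 and 3 (exact permutation p = 0.2). Antagomir replicate 2 was the lowest of the 6 libraries also in the joined share. Katnal1-201, the full-length form, held 47.5 ± 4.11% of Katnal1 TPM with antagomir and 46.1 ± 7.62% with vehicle (exact permutation p = 0.9). Stmn2-201 held 91.8 ± 3.65% of Stmn2 TPM with antagomir and 97.1 ± 3.80% with vehicle (exact permutation p = 0.2), a difference of -5.36 percentage points that was -0.97 as a share of counts. Shares of the leading transcripts Fign-201 and Fignl1-201 ranged from 0 to 59.7% and from 0 to 97.0%. They were not resolved at the depth of these genes. Over the 9 shares tested, every adjusted p was 1.

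**Figure D4:**
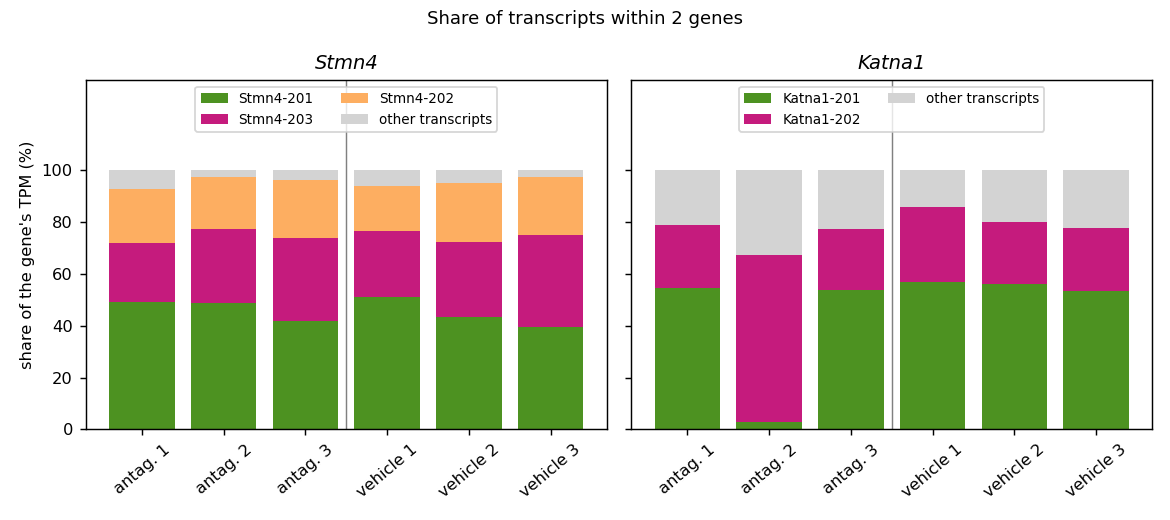
Share of the gene's TPM (%, vertical axis) held by each transcript of Stmn4 (left) and Katna1 (right) in each library, with antagomir libraries left of the vertical line. The 3 Stmn4 forms are present in all libraries, with 39.4 to 51.3% for Stmn4-201, 22.8 to 35.7% for Stmn4-203 and 17.2 to 23.1% for Stmn4-202. In antagomir replicate 2 Katna1-201 is at 2.82% and Katna1-202 at 64.5%.

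The start regions of Stmn3, whose level was highest in the libraries rich in neuroblast markers, and Katnal1, whose level was not, are shown as the 200 bases before the start that RefSeq annotates (GRCm38.p6, minus strand for both). The table held 5 of the 9 members. Capitals mark matches, on either strand, to the E-box CAGATG.
Stmn3: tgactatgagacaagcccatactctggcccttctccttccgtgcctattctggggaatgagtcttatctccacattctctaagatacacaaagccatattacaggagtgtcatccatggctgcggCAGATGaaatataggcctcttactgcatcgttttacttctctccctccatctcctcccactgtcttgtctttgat
Katnal1: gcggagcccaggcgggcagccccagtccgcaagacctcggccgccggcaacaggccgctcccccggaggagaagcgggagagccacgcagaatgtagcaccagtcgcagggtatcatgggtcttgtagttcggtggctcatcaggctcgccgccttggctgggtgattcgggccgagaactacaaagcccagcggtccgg
The Stmn3 stretch is at chr2:181314501-181314700 and the Katnal1 stretch at chr5:148928648-148928847. For Katnal1 the annotations differ: the RefSeq stretch lies inside the GENCODE gene, downstream of the GENCODE start, so it is not the region before that start. The Stmn3 stretch held CAGATG once, 75 bases before the start, and was 46.5% G and C. The Katnal1 stretch held none of the motifs searched on both strands, which were CAGATG and CAGCTG as E-boxes, GGGCGG as the Sp1 box, CCAAT as the CCAAT box and TATAAA as the TATA box, and was 67.5% G and C. Over 32851 such stretches the median was 53.0% G and C, and 11.6% held CAGATG or its reverse complement. Spast also held an E-box, CAGCTG, 138 bases before its start, where 10.9% of stretches hold it. The GGGCGG box was found 3 times before Fignl1 and once before Spast, where 31.0% of stretches hold it. A match describes letters and not binding.

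Other genes of microtubule control were taken from 6 lists by role, 91 genes of which 89 were tested, and none passed edgeR's test in either direction (0 by DESeq2 as well). At an unadjusted p under 0.05 there were 6 higher and 1 lower of the 89, beside 2.18% higher and 1.93% lower over all tested genes. The log2 fold change was above 0 in 65 and below 0 in 24, with a median of 0.18, beside -0.0062 over all tested genes. That median was 0.075 without antagomir replicate 1. Groups did not overlap in 11 genes with antagomir higher and in 2 with antagomir lower, beside 5.07% and 5.45% of all tested genes. The lists share Dcx and Tubb3 with the neuroblast markers and Cdk1 and Aurkb with the markers of dividing cells. The genes named below, apart from Tubb3, were picked as the 2 with the smallest p in each list. They are therefore the extremes of their lists and not typical of them. Each gene named below had an edgeR adjusted p of 0.949.

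Among tubulins, the subunits of the microtubule, 10 of 15 had a positive log2 fold change (median 0.19). Tuba1c measured 65.6 ± 9.72 CPM with antagomir and 48.7 ± 6.32 CPM with vehicle, and Tuba1a, the main alpha-tubulin of young neurons, 3288 ± 787 CPM with antagomir and 2447 ± 297 CPM with vehicle (SD, n = 3 each). Tubulin genes have near-identical copies among which reads may be divided. The neuronal beta-tubulin gene Tubb3 measured 382, 107 and 93.5 CPM with antagomir, against 199, 42.7 and 32.5 CPM with vehicle, with vehicle replicate 1 above antagomir replicates 2 and 3. Of 17 genes of proteins that bind along the lattice, 15 were positive (median 0.19), with Map6, which protects microtubules from cold, at 63.2 ± 7.45 CPM with antagomir and 50.2 ± 5.87 CPM with vehicle, and Map1s at 90.1 ± 16.4 CPM with antagomir and 70.6 ± 1.99 CPM with vehicle.

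Partners of the severing enzymes were positive in 9 of 12 (median 0.18). Camsap3, which holds microtubule minus ends and works with katanin, measured 16.7 ± 4.81 CPM with antagomir and 9.19 ± 0.539 CPM with vehicle. Chmp1b, the membrane-remodelling protein gene that recruits spastin, measured 44.8 ± 0.998 CPM with antagomir and 34.9 ± 3.52 CPM with vehicle. In both genes the groups did not overlap, and both had an edgeR adjusted p of 0.949. Genes that modify tubulin, some of whose marks katanin and spastin read, were positive in 10 of 17 (median 0.15). The tubulin acetyltransferase gene Atat1 measured 133.5 ± 29.6 CPM with antagomir and 87.3 ± 10.2 CPM with vehicle, and its groups did not overlap. Tpgs2, which encodes a subunit of a polyglutamylase, was among the 7 negative ones, with 63.5 ± 2.38 CPM with antagomir and 81.3 ± 3.40 CPM with vehicle, and did not overlap either.

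Regulators of microtubule ends were positive in 11 of 15 (median 0.14). Tacc3, a spindle protein, measured 59.2 ± 3.06 CPM with antagomir and 31.4 ± 11.6 CPM with vehicle, and the end-binding protein gene Mapre2 measured 194.5 ± 48.2 CPM with antagomir and 137.7 ± 26.2 CPM with vehicle. Kinases that phosphorylate stathmins were positive in 10 of 13 (median 0.14), with Aurkb at 26.4 ± 0.708 CPM with antagomir and 11.04 ± 6.37 CPM with vehicle. Mapk9, a Jun kinase, measured 93.9 ± 4.37 CPM with antagomir and 73.2 ± 8.90 CPM with vehicle. Markers of dividing cells summed to 397, 309 and 362 CPM with antagomir and to 352, 103 and 108 CPM with vehicle, and their part in the values of Tacc3, Aurkb and Stmn1 was not tested.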

How the data were processed

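Transcripts were quantified with kallisto, and sleuth and build mm10 are also listed, per the submitters' processing notes, which state no versions. Per the file headers, the deposited tables hold estimated counts (expected counts) for each transcript, not normalized, and the deposited TPM, which sum to an equal total in each library. Of 99567 transcripts, 98294 matched GENCODE M21 by identifier without version, and the other 1273 (0.524 to 0.586% of counts) were left out. Counts were summed per gene and rounded. The quasi-likelihood test of edgeR 4.0.16 (R 4.3.3) compared the groups over all 6 libraries, with TMM scaling, the filterByExpr filter at a minimum count of 10, robust fitting and no covariate. Its p-values were adjusted by Benjamini-Hochberg across 15012 genes. The script was tested on simulated data of 14716 tested genes, with 50 genes changed at each of 1.5-fold, 2-fold, 4-fold and 8-fold. It called 0 of 50 genes changed 1.5-fold, 8 of 50 changed 2-fold, 37 of 50 changed 4-fold and 40 of 50 changed 8-fold. There were 7 false calls in the whole simulation. A gene that did not pass is therefore not shown to be unchanged, above all at 2-fold or less. Transcript shares were compared with exact permutation tests (SciPy 1.17.1). No pair of libraries differed by as little as sampling noise (chi-square per gene of at least 22.6).

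The members and lists were chosen with earlier results of these data known. Named genes were the members, the 3 nearest genes to each by RMS difference, the 2 tested genes with the smallest p of each role list, and Dcx and Tubb3; 1 nearest gene is not reported here. Further settings comprised RLE, upper-quartile and unscaled totals, DESeq2 1.42.0, limma 3.58.1 (voom, and log2 of TPM plus 1 or 0.1), other filters, each library left out, and replicate number as a block. Leaving out replicate 1 of both groups and joining the Katna1 transcripts were added after seeing the data.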

Additional observations from a re-analysis of the deposited data

How the results depend on the processing

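Across the alternatives, 0 members and 0 of the other microtubule genes were called by any tool. The count over all genes was 0 in every alternative except DESeq2, which called 5. Stmn1, Stmn2, Stmn3, Stmn4, Katna1, Katnal1 and Spast kept a positive log2 fold change in all 17 alternatives. Fign turned positive on TPM (0.165 with a pseudocount of 1 and 0.527 with 0.1). With 1 library left out, the log2 fold change ran from -1.004 to 0.71 for Fign, from -0.29 to 0.91 for Fignl1, from 0.42 to 0.996 for Stmn1 and from 0.072 to 1.28 for Stmn3. Whether the replicate numbers pair the libraries was not resolved. Deviations of same-numbered libraries correlated at 0.195, 0.0749 and 0.0275 across genes, and those of differently numbered libraries between -0.186 and 0.14. With a replicate block in edgeR, 0 genes were called and 1284 had an unadjusted p under 0.05, against 616 without it. The block changed no call. The unadjusted edgeR p of Stmn2 was 6.31e-05 with the block and 0.168 without it (adjusted p of 0.21 and 0.949). The unadjusted p fell also for the other stathmins, Spast and Fignl1, and rose for Katna1, Katnal1 and Fign. The median over all genes lay between -0.03 and 0.05. Fign and Fignl1 combined low counts (31 to 142 and 32 to 155 per library) with a wide spread between libraries, and Stmn2 and Stmn3 had a wide spread at higher counts.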
